A study of Mus musculus with 8 samples.

Results

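The genes described here are 40 genes of glycolysis and of the response to low oxygen, out of 23337 gene names in a table of mouse embryonic stem (ES) cell transcripts. They were chosen by name, as the enzymes of glycolysis, the genes that sense oxygen and known targets of the hypoxia-inducible factor (HIF), after results of the same libraries had shown that such genes differed between cultures. Their variation between libraries is therefore given as a description with no test, and only the comparison of passages was tested. All 40 names were found in the table. They comprise 3 genes of glucose uptake and phosphorylation, 10 core enzymes, 3 genes of pyruvate and lactate, 3 of flux regulation and glycogen, 4 of oxygen sensing and 17 HIF targets outside glycolysis.

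Polyadenylated RNA of 4 ES cell clones, numbered 6, 20, 30 and 36, was sequenced at passage 6 and again at passage 16, in 8 libraries with n = 4 clones per passage, to look for transcripts that change during expansion, in which telomeres lengthen. All clones carry the label 129S1 for the strain and wild type for the genotype, come from blastocysts with GFP in the Rosa26 locus, and were expanded in vitro in DMEM with LIF, so that the passages differ in time in culture alone as far as the labels say. The study's methods name C57BL6 for a pair of cultured clones and 129S1 for the ES cells put into chimaeras, and do not say which were sequenced. There is 1 library per clone and passage, and neither the oxygen nor the density of the cultures at harvest is given in the sources used here. ES cell markers were abundant in all libraries, with *Pou5f1* between 23589 and 29184 normalized counts (reads divided by 1 size factor per library).

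Glycolysis splits glucose into pyruvate in the cytosol, and pyruvate is either passed to the mitochondria or reduced to lactate. HIF is a transcription factor whose alpha subunit is hydroxylated by prolyl hydroxylases (the Egln proteins) when oxygen is present, is then bound by the VHL protein and is degraded, and in low oxygen it activates glycolytic enzymes, glucose transporters and genes for survival with little oxygen. ES cells are known for high glycolytic flux also when oxygen is present. In bulk RNA, fewer cells of a kind and less RNA per cell cannot be told apart.

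HIF binds DNA at a short core motif, and the promoters of 5 genes are shown because they span the behaviour described below: *Ldha*, whose level followed the core enzymes most closely, *Bnip3* and *Egln3*, the most variable target and sensor, *Tpi1*, a variable enzyme, and *Gapdh*, the least variable one. Each line gives the 250 bases before the start site that RefSeq lists first for the gene (GRCm38.p6, 5′ to 3′ on the strand of the gene), with capitals for matches to ACGTG or GCGTG on either strand. A CACGTG site counts on both strands and is also the binding site of other factors.
Ldha: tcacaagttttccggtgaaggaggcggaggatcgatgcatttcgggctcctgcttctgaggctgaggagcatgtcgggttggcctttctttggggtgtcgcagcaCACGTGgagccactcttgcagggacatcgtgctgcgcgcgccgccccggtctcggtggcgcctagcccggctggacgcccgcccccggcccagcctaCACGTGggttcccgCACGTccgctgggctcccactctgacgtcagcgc
Bnip3: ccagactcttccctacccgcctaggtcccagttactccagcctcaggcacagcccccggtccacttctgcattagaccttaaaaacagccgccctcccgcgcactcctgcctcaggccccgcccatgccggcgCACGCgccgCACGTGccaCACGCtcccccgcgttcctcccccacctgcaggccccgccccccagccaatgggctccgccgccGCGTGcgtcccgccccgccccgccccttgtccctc
Egln3: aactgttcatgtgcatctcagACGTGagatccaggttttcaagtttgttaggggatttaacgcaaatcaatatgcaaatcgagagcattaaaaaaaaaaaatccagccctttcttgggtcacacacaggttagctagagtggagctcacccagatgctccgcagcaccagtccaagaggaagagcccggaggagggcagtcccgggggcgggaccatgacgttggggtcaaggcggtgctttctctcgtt
Tpi1: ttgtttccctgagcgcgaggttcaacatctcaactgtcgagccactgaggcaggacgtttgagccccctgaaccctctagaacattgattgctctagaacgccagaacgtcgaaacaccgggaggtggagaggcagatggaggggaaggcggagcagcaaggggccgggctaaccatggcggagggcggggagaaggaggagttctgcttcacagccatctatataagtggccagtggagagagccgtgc
Gapdh: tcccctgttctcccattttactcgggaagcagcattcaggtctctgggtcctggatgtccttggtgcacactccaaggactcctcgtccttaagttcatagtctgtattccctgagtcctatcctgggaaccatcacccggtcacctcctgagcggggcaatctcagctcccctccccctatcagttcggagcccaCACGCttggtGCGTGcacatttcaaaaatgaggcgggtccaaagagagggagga
The stretches lie at chr7:46845554-46845803 (plus strand) for *Ldha*, chr7:138909507-138909756 (minus strand) for *Bnip3*, chr12:54203875-54204124 (minus strand) for *Egln3*, chr6:124814159-124814408 (minus strand) for *Tpi1* and chr6:125165774-125166023 (minus strand) for *Gapdh*. They hold 5 matches for *Ldha*, 5 for *Bnip3*, 1 for *Egln3*, 0 for *Tpi1* and 2 for *Gapdh*. Over the whole RefSeq window of 300 bases, which adds 50 bases after the start, *Ldha* had 7 matches and *Gapdh* 3. Of the 36 genes of the set with such a window, 27 (75.0%) held a match in the first one, against 43.8% of 27025 genes. The windows of the set also had more G and C, with a median of 64.7% against 52.7%, and the part of base composition in that share was not tested. Matches were found in 18 of 22 genes that differed more than 2-fold between libraries and in 9 of 14 that did not.

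In the same build, the genes themselves lie at chr7:46842274-46855627 (*Ldha*), chr7:138890836-138909506 (*Bnip3*), chr12:54178981-54203874 (*Egln3*), chr6:124810586-124814158 (*Tpi1*) and chr6:125161852-125166467 (*Gapdh*), and the values below are counts over their exons. The spans of *Ldha* and *Gapdh* begin upstream of the start sites used here, so their stretches lie within the gene.

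Part of the table was out of register. Where 1 gene name is the start of another and a digit follows, the lines form groups, 644 in all with 5080 names (21.8% of the table), and in these groups counts of the other 7 libraries stood on the wrong line when clone 6 at passage 6 was taken as the reference for the order of names. None of the 40 genes belongs to such a group, no out-of-order pair of lines held one of them, and no count of theirs moved when the order was restored. The values below are thus the deposited ones. Library totals were between 21394069 and 34295561 reads, and the lowest count of any of the 40 genes in a library was 62 reads, with a counting error of 12.7%. Counts of 10 of the 40 genes are uncertain because over 10% of their 50-base windows also occur in transcripts of other genes. The shares are 82.5% for *Gapdh*, 72.2% for *Eno1*, 68.0% for *Pgk1*, 48.9% for *Bnip3* and 41.5% for *Pgam1*, and 11.3% to 30.5% for *Pkm2*, *Gpi1*, *Ldha*, *Aldoa* and *Ak4*. In addition, 7 genes, *Aldoa* and *Gapdh* again among them, share exon bases with a neighbour (the others are *Pfkp*, *Tpi1*, *Gys1*, *Ankrd37* and *Bhlhe40*), and whether counting used the strand is not given in the sources used here.

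Most of the set varied together between cultures. The mean of the 10 core enzymes, as a deviation from the mean of all libraries on the log2(normalized count + 1) scale, was highest in clone 6 at passage 6 (0.55), followed by clone 20 at passage 16 (0.37), clone 36 at passage 16 (0.21) and clone 36 at passage 6 (0.20). It was -0.0090 in clone 6 at passage 16, -0.34 in clone 30 at passage 16, and -0.49 in clones 20 and 30 at passage 6. High and low cultures occurred at both passages, and the order followed neither the passage nor the clone number. Y-linked transcripts reached 2198 and 2210 normalized counts in clones 20 and 30, and at most 2.67 and 9.48 in clones 6 and 36. At passage 6 the core enzymes were higher in clones 6 and 36, and at passage 16 they were highest in clone 20. *Pgk1*, a core enzyme, lies on the X chromosome, and the part of the sex chromosomes was not tested. Of the 40 genes, 24 were highest in clone 6 at passage 6 and 10 in clone 20 at passage 16, and 16 were lowest in clone 20 at passage 6, 15 in clone 30 at passage 6 and 5 in clone 30 at passage 16.

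**Figure D1:**
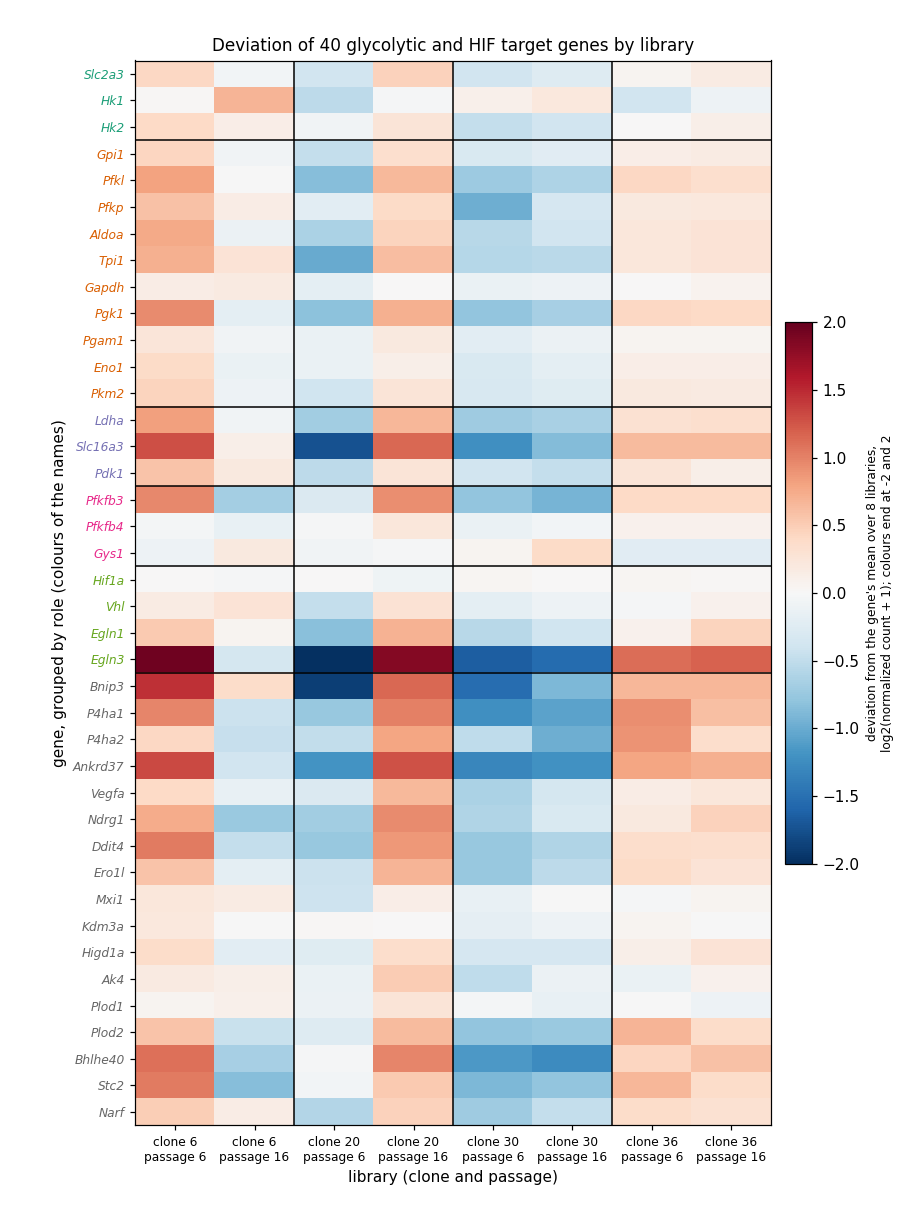
Deviation of each of the 40 genes (rows, grouped and coloured by role) from its own mean over 8 libraries (columns, by clone and passage), on the log2(normalized count + 1) scale, with colours that end at -2 and 2. Most rows are red in clone 6 at passage 6, clone 20 at passage 16 and both libraries of clone 36, and blue in clone 20 at passage 6 and both libraries of clone 30, while *Hif1a*, *Gapdh* and *Kdm3a* are pale throughout.

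The highest and the lowest library differed more than 2-fold for 25 of the 40 genes and for 24.1% of all 14641 names tested, and more than 4-fold for 6 of the 40 and for 4.52% of all. The median range was 1.33 on the log2 scale for the set and 0.54 for all names. *Ak4* (range 1.01) lay just inside the 2-fold limit and *Gpi1* (0.91) just outside it. Likeness to the core enzymes is given as Pearson's r between a gene and the mean of the core enzymes, the gene itself left out, over 8 libraries, which come from 4 clones and are not independent. It was over 0.9 for 22 of the 40 genes, and its median was 0.93. Of all names, the 40 genes among them, 1.74% had r over 0.9 with the mean of all 10 core enzymes. By that measure 9 of the core enzymes were over 0.9, and 8 were with the gene itself left out. Without the libraries farthest from the median (clones 20 and 30 at passage 6) the median r was again 0.93, and with the mean of each passage removed it was 0.94. Because the set was chosen for this behaviour, these shares describe it and support nothing further.

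Library depth ran against the pattern at passage 6, where the core enzymes were highest in the library with 21394069 reads (clone 6), lower in that with 23868268 (clone 36) and lowest in those with 31634237 and 34295561 (clones 20 and 30), and the part of depth was not tested. At passage 16 the core enzymes stood at 0.37 in clone 20 (29061381 reads), 0.21 in clone 36 (27572995), -0.0090 in clone 6 (31752466) and -0.34 in clone 30 (29140582). The libraries of clones 20 and 30 there differed by 0.273% in reads. The mean of the core enzymes was higher in clone 20 than in clone 30 by 0.71 on the log2 scale. The part of depth was not tested here either.

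Among the core enzymes, 5 of 10 differed more than 2-fold between libraries and 5 did not, and 8 had r over 0.9. *Pgk1*, phosphoglycerate kinase, the first step that yields ATP, varied most, with 36474, 10748, 10918 and 25346 normalized counts at passage 6 and 16564, 30841, 11910 and 24976 at passage 16 in clones 6, 20, 30 and 36, the order used throughout. *Tpi1*, triosephosphate isomerase, which interconverts the products of aldolase, had 13724, 4181, 5647 and 9808 at passage 6 and 10138, 12789, 5772 and 10102 at passage 16. Both spanned more than 3-fold, from clone 20 at passage 6 to clone 6 at passage 6 (3.39-fold for *Pgk1* and 3.28-fold for *Tpi1*).

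The subunits of phosphofructokinase, the committed step of glycolysis, also varied. *Pfkl* had 10329, 3285, 3593 and 7878 normalized counts at passage 6 and 5921, 9265, 3886 and 7514 at passage 16, a 3.14-fold span with r = 0.99, among the closest to the other enzymes. *Pfkp* had 6537, 3754, 2227 and 4976 and 4842, 5702, 3473 and 5051, with its lowest level in clone 30 at passage 6 and r = 0.87. *Aldoa*, aldolase A, which splits fructose bisphosphate, had 46859, 17853, 18913 and 32576 at passage 6 and 25766, 38004, 21271 and 33462 at passage 16. All these enzymes were high in clone 6 at passage 6 and in clone 20 at passage 16.

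*Gpi1*, glucose phosphate isomerase at the entry of the pathway, had 22230, 11826, 13355 and 18030 normalized counts at passage 6 and 15558, 20752, 14070 and 18388 at passage 16. *Pkm2*, the pyruvate kinase gene at its end (current symbol *Pkm*, whose isoforms a gene count does not separate), had 92470, 51405, 54244 and 77831 and 63109, 81101, 57308 and 76634. Both stayed within 2-fold, with ranges of 0.91 and 0.85, and followed the other enzymes closely (r = 0.98 and 0.99). Per kilobase of exon, *Pkm2* had the highest median level of the set with 13972 normalized counts per kb, ahead of *Pgam1* (13816) and *Gapdh* (10045).

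The narrowest enzymes were those that act between glyceraldehyde phosphate and phosphoenolpyruvate, *Pgk1* excepted. *Gapdh*, glyceraldehyde phosphate dehydrogenase and a common reference gene, had 45819, 36112, 37718 and 41507 normalized counts at passage 6 and 46764, 41523, 38494 and 43521 at passage 16. Its span was 1.29-fold, the smallest of the core enzymes, and its r with the others was 0.77, and it lay on the same side of its mean as they did in 7 of 8 libraries, with its highest level in clone 6 at passage 16. *Pgam1*, phosphoglycerate mutase, had 32596, 25021, 23738 and 28612 and 26156, 31393, 25277 and 28613, a 1.37-fold span, and kept the order of the enzymes on a small scale (r = 0.96).

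*Eno1*, enolase, had 2626, 1837, 1625 and 2192 normalized counts at passage 6 and 1832, 2171, 1758 and 2214 at passage 16, a 1.62-fold span with r = 0.91. Its median level per kilobase of merged exons was 373, against 10045 for *Gapdh*. Of its 50-base windows, 72.2% occur in 9 other genes, among them *Eno1b*, listed as *Gm5506*. This name, chosen after its values were seen, had with the row order restored 8996, 6118, 5745 and 7526 and 6175, 7289, 5554 and 7092. Both rows had their highest level in clone 6 at passage 6, and their reads cannot be told apart with certainty. The 3 narrowest enzymes are also those with large shares of sequence found in other transcripts. *Pkm2*, *Gpi1* and *Aldoa*, with shares between 13.5% and 30.5%, had ranges between 0.85 and 1.39 on the log2 scale. *Pfkp*, *Pfkl* and *Tpi1*, with shares between 0% and 7.5%, had ranges between 1.55 and 1.71. *Pgk1*, at 68.0%, had the widest range (1.76). The part of shared reads in these ranges was not tested.

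**Figure D2:**
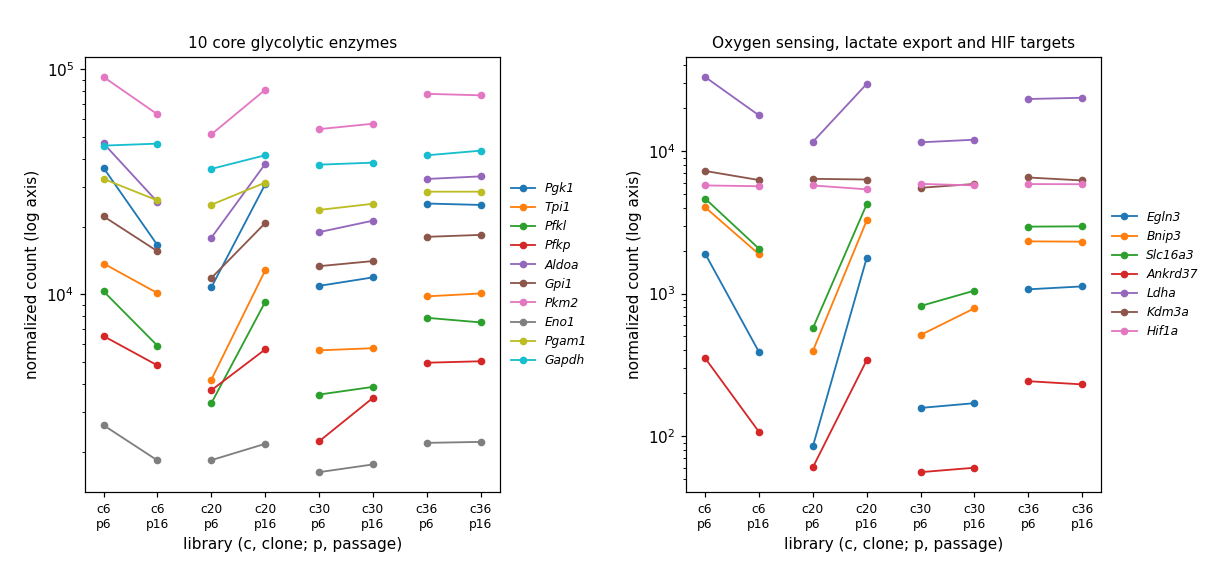
Normalized counts (log axis) of the 10 core enzymes (left) and of 7 genes of oxygen sensing, lactate metabolism and the HIF response (right) in each library, 1 point per library, with a line joining passage 6 (p6) and passage 16 (p16) of a clone (c). Lines slope down in clone 6 and up in clone 20 for most genes and are nearly level in clones 30 and 36, while *Gapdh*, *Hif1a* and *Kdm3a* are nearly level throughout.

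Glucose uptake followed the enzymes, and hexokinases did so unevenly. *Slc2a3*, which encodes the transporter GLUT3, had 70226, 40507, 40297 and 54538 normalized counts at passage 6 and 50653, 72687, 44222 and 58845 at passage 16, with r = 0.97 and a span of 1.80-fold. *Hk2*, the hexokinase that HIF is known to induce, ranged from 7420 to 13622 with r = 0.88. *Hk1*, the housekeeping hexokinase, had 1382, 948, 1457 and 1040 at passage 6 and 2176, 1340, 1576 and 1271 at passage 16. *Hk1* spanned 2.30-fold but out of step with the enzymes (r = 0.03), with its highest level in clone 6 at passage 16 and its lowest in clone 20 at passage 6. Per kilobase of merged exons, the median level of *Hk2* was 1820 and that of *Hk1* 160.

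The branch from pyruvate to lactate varied in full. *Ldha*, the lactate dehydrogenase subunit that forms lactate, ranged from 11527 to 33148 normalized counts, with the highest r of the set (0.99). *Slc16a3*, which encodes the lactate exporter MCT4, had 4649, 571, 819 and 2952 at passage 6 and 2066, 4241, 1049 and 2966 at passage 16. That is a span of 8.14-fold with r = 0.98, far wider than that of any core enzyme. *Pdk1*, the kinase that inhibits pyruvate dehydrogenase and so keeps pyruvate out of the mitochondria, had 7806, 3666, 4035 and 6333 and 6031, 6338, 3780 and 5707, a 2.13-fold span with r = 0.96. The same libraries were high and low for all 3 genes.

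The enzymes that set fructose 2,6-bisphosphate, an activator of phosphofructokinase, differed from each other. *Pfkfb3* had 1771, 748, 525 and 1206 normalized counts at passage 6 and 567, 1742, 478 and 1205 at passage 16, a 3.71-fold span with r = 0.88. *Pfkfb4* was low, with 107, 107, 99.3 and 116 and 99.1, 128, 105 and 117, and spanned 1.29-fold, as little as *Gapdh*. *Gys1*, the muscle-type glycogen synthase, ranged from 1781 in clone 36 at passage 6 to 2732 in clone 30 at passage 16 and ran against the enzymes (r = -0.49), on a span of 1.53-fold.

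Of the oxygen sensing genes, the hydroxylases varied and the transcript of the factor itself stayed level. *Hif1a*, which encodes the HIF-1 alpha subunit, had 5743, 5744, 5889 and 5874 normalized counts at passage 6 and 5670, 5391, 5744 and 5857 at passage 16. Its span of 1.09-fold was the narrowest of the 40 genes, and the protein, which is what oxygen acts on, was not measured. *Egln3*, a prolyl hydroxylase and itself a HIF target, had 1909, 84.7, 158 and 1072 at passage 6 and 389, 1782, 170 and 1123 at passage 16, a span of 22.5-fold with r = 0.98, the widest of the set. It was at most 170 in clone 20 at passage 6 and in both libraries of clone 30, and at least 389 in all others. *Egln1*, the main prolyl hydroxylase, ranged from 657 to 1905 (r = 0.95), and *Vhl*, which encodes the protein that marks hydroxylated HIF for degradation, from 634 to 1080 (r = 0.79).

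HIF targets outside glycolysis followed as a group, with 13 of 17 differing more than 2-fold and r between 0.62 and 0.98. Their mean deviation was 0.66 in clone 6 at passage 6, 0.66 in clone 20 at passage 16, 0.38 and 0.33 in clone 36 at passages 6 and 16, -0.24 in clone 6 at passage 16, -0.49 in clone 20 at passage 6, and -0.71 and -0.58 in clone 30 at passages 6 and 16. *Bnip3*, a mitophagy receptor, had 4038, 396, 512 and 2326 normalized counts at passage 6 and 1889, 3266, 789 and 2315 at passage 16, a 10.2-fold span with r = 0.98. *Kdm3a*, a histone H3 lysine 9 demethylase, had 7257, 6391, 5528 and 6530 and 6266, 6319, 5882 and 6225, a span of 1.31-fold, the narrowest of these targets. Known HIF targets thus ranged from among the widest to among the narrowest genes of the set.

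Among genes of the hypoxic stress response, *Ankrd37*, an ankyrin repeat protein, ranged from 55.8 to 353 normalized counts (r = 0.98). *Ddit4*, an inhibitor of mTORC1 signalling, ranged from 1281 to 4496 (r = 0.96). *Ndrg1*, a stress-induced gene, ranged from 332 to 1071 (r = 0.87). These 3 genes spanned between 3.22-fold and 6.32-fold. *Vegfa*, the endothelial growth factor, spanned 2.42-fold from 979 to 2366 (r = 0.93).

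The collagen-modifying enzymes did not move alike. *P4ha1*, a prolyl 4-hydroxylase subunit, ranged from 750 to 3534 normalized counts (r = 0.94), and *P4ha2* from 506 to 1866 (r = 0.82). *Plod2*, a lysyl hydroxylase, ranged from 2298 to 6377 (r = 0.87). *Plod1*, its paralog, ranged only from 933 to 1231 (r = 0.62). *P4ha2* and *Plod2* were highest in clone 36 at passage 6, in place of the libraries that led most of the set.

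Of the remaining targets, *Bhlhe40*, a transcriptional repressor, ranged from 505 to 2594 normalized counts (r = 0.84), and *Stc2*, a secreted glycoprotein, from 160 to 620 (r = 0.80). *Ero1l* (current symbol *Ero1a*), an oxidase of protein folding, ranged from 1728 to 4696 (r = 0.96). *Narf* ranged from 338 to 780 (r = 0.97). Another 3 targets stayed near or below 2-fold. These were *Ak4*, a mitochondrial adenylate kinase (3970 to 7969, r = 0.76), *Higd1a*, a mitochondrial inner membrane protein (1102 to 1793, r = 0.93), and *Mxi1*, a MAX partner that opposes MYC (769 to 1197, r = 0.80).

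**Figure D3:**
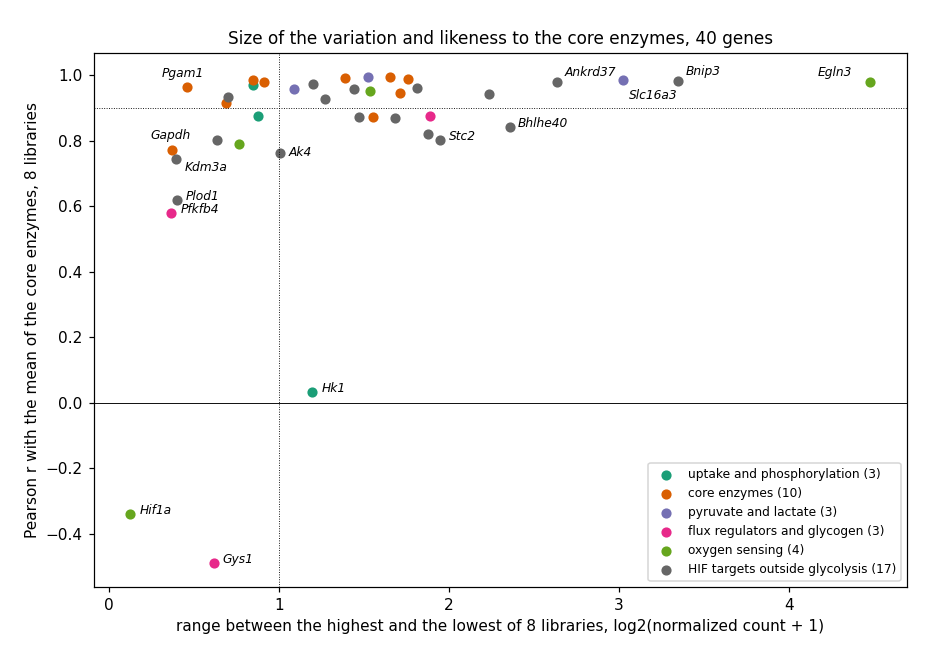
Range between the highest and the lowest of 8 libraries (horizontal, log2(normalized count + 1)) against Pearson's r with the mean of the core enzymes (vertical), 1 point per gene, coloured by role, with dotted lines at a range of 1 (2-fold) and r of 0.9. *Egln3* (4.48), *Bnip3* (3.35) and *Slc16a3* (3.02) lie far to the right near r = 1, while *Hk1*, *Hif1a* and *Gys1* lie apart near or below r = 0.

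In clone 6 at passage 16 the genes of the set did not share 1 level. The mean of its core enzymes was near the mean of all libraries, but single genes lay anywhere between the extremes. Placed on the log2 scale between the lowest (0%) and the highest library (100%) of each gene, *Ndrg1* lay at 0%, *Stc2* at 2.17%, *Pfkfb3* at 13.1% and *Ddit4* at 15.9%. In the same library *Narf* lay at 71.3%, *Pfkp* at 72.1%, *Tpi1* at 74.5% and *Bnip3* at 67.3%, and *Hk1* and *Gapdh* at 100%. The median was 40.7% for the core enzymes and 35.7% for the targets outside glycolysis, so the spread lay within both groups. Positions were computed for this library alone, and other libraries also held genes at either extreme, such as clone 36 at passage 6, where *Gys1* was lowest and *P4ha2* highest. No replicate of this library exists, and the spread between cultures of 1 clone at 1 passage is not known.

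The 2 passages of a clone were compared as 1 library each, paired by the clone number of the labels alone, without a test. Across names, deviations from passage means in clone 6 at passage 6 correlated more with another clone at passage 16 (r = 0.28) than with clone 6 (0.067). In clone 6, 35 of the 40 genes were lower at passage 16, and in clone 20, 38 were higher. Both held for 33 genes, against 25.6% of all names tested, and for 9 genes both changes were over 2-fold, against 0.512% of all. The median size of the change on the log2 scale was 0.55 for the set in clone 6 and 0.86 in clone 20, where all names had 0.21 and 0.19. In clones 30 and 36 it was 0.11 and 0.069, where all names had 0.11 and 0.10, and 0 genes of the set changed more than 2-fold, where 1.99% and 1.5% of all names did. For *Egln3* the change was -2.29 in clone 6, 4.38 in clone 20, 0.11 in clone 30 and 0.07 in clone 36. Clone 30 was thus low and clone 36 high at both passages, while clone 6 went from the highest level to a middle one and clone 20 from a low level to a high one.

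**Figure D4:**
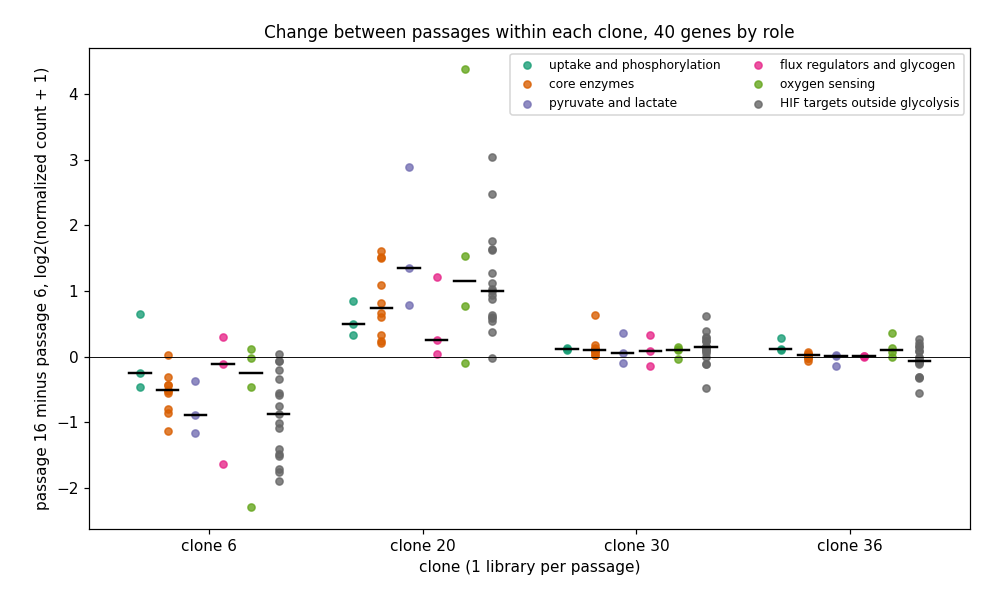
Passage 16 minus passage 6 on the log2(normalized count + 1) scale for each of the 40 genes (points, coloured by role) in each clone, 1 library per passage, with black bars for the median of a role group. Most points lie below 0 in clone 6 and above 0 in clone 20, and close to 0 in clones 30 and 36.

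Between the passages, no gene of the set differed beyond the spread between clones. Of 14641 names tested on log2(normalized count + 1) without a clone term, limma with Benjamini-Hochberg adjustment called 0 (0% of all) at an adjusted p under 0.05. Unadjusted, 513 names (3.5%) had p under 0.05, and none of the 40 genes did. DESeq2 and edgeR also called 0 names and none of the set, with 625 and 517 names unadjusted, among which DESeq2 had 1 gene of the set, *Hk1*. The lowest adjusted p in the set was 0.968 from limma. The study itself reports *Sox18*, *Sox17*, *Zbtb48*, *Chst15* and *Jph4* at an adjusted p under 0.05 from DESeq2, none of them in the set. The DESeq2 fit here used counts with the row order restored, a step that the study's methods do not mention. *Sox18* and *Sox17* extend the name *Sox1* by a digit, as names in the groups of displaced lines do. The part of displaced lines in the study's calls was not tested. The libraries of both passages overlapped for all 40 genes, where 1.12% of all names were higher and 1.18% lower at passage 16 with no overlap. The median log2 fold change of the set was 0.11, with 32 genes positive and 8 negative, against -0.0049 for all names. Genes of the set move together, so the 32 signs are not separate results. The median turned negative when 1 library was left out, to -0.036 without clone 30 at passage 6, -0.028 without clone 20 at passage 6 and -0.018 without clone 20 at passage 16, and it was 0.32 without clone 6 at passage 6.

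The 5 genes with the lowest unadjusted p were *Hk1*, *Vhl*, *Ak4*, *Mxi1* and *Gys1*. *Hk1* had 1207 ± 251 normalized counts at passage 6 and 1591 ± 412 at passage 16 (SD, n = 4 clones) and was higher in 4 of 4 clones, by 0.39 on the log2 scale (SE 0.193, adjusted p = 0.968 from limma). Its p was 0.200 in a two-sided exact permutation test that ignored the clones, where 0.0286 is the smallest that 4 against 4 allow. *Vhl* had 818 ± 153 and 982 ± 123 (SD, n = 4), higher by 0.27 on the log2 scale (SE 0.145). *Ak4* had 5148 ± 975 and 6300 ± 1178 (SD, n = 4), higher by 0.29 on the log2 scale (SE 0.158). *Hk1* and *Vhl* were higher in every clone, and *Ak4* in 3 of 4.

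*Mxi1* had 971 ± 179 and 1085 ± 62.0 (SD, n = 4), higher by 0.18 on the log2 scale (SE 0.125). *Gys1* had 1982 ± 166 and 2247 ± 408 (SD, n = 4), higher by 0.17 (SE 0.125). *Gapdh* had 40289 ± 4325 normalized counts at passage 6 and 42576 ± 3474 at passage 16 (SD, n = 4), higher by 0.08 on the log2 scale (SE 0.0873). In all, 4 genes of the set were higher at passage 16 in every clone (*Hk1*, *Gapdh*, *Gys1* and *Vhl*), where 8.01% of all names were, and 1 was lower in every clone (*Hif1a*, log2 fold change -0.04), where 9.64% of all were. With a term for the clone, the replicate block, limma called 0 names, and *Hk1* and *Ak4* had unadjusted p under 0.05, with adjusted p = 0.627 from limma for both. DESeq2 with the replicate block called 40 names (16 higher and 24 lower at passage 16), none of them in the set.

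Glycolysis genes outside the set showed the same pattern in part. Of 33 listed, 25 were tested, 10 differed more than 2-fold between libraries (24.1% of all names did), and none passed between the passages. Their median r with the core enzymes was 0.35, with 4 over 0.9 (1.74% of all names) and 7 below 0. *Aldoc*, a further aldolase, had 919, 115, 134 and 506 normalized counts at passage 6 and 334, 810, 157 and 533 at passage 16 and was, of all names outside the set, the one most like the core enzymes (r = 0.995). *Pygl*, liver glycogen phosphorylase, ranged from 41.4 to 173 (r = 0.94). After *Aldoc*, the names most like the enzymes were *Tbl2* (1455 to 2182, r = 0.99) and *Tfrc*, the transferrin receptor (11668 to 19358, r = 0.99). *Tfrc* is a HIF target that stands here both in the list of other HIF targets and in that of reference genes, and it is counted in each. *Slc2a1*, which encodes the transporter GLUT1 and was chosen after its values were seen, had 36774, 15469, 14011 and 25720 and 18874, 35661, 15370 and 28194 with the row order restored (r = 0.97). As deposited, its row is out of register in 4 libraries and falls to 14.4.

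Other HIF targets and regulators also followed in part, with 37 of 38 tested, 17 over 2-fold (24.1% of all names were) and none past the threshold between passages. Their median r was 0.63, with 12 over 0.9 (1.74% of all names) and 10 below 0. *Ndufa4l2*, a subunit-like protein of respiratory complexes that HIF induces, had 366, 8.11, 19.7 and 214 normalized counts at passage 6 and 86.8, 368, 34.8 and 255 at passage 16. This span of 45.4-fold (r = 0.97) was wider than that of *Egln3*, from a lowest library of 9 reads. *Cox4i2*, the hypoxic isoform of a cytochrome oxidase subunit, ranged from 4.50 to 43.0 (r = 0.92), and *Rora* from 5.41 to 41.4 (r = 0.92).

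The neighbouring pathways, as lists, did not share the pattern. Of 25 genes of pyruvate dehydrogenase and the citrate cycle, 0 differed more than 2-fold between libraries, their median range was 0.22, and their median r was 0.0050. *Ogdh*, a subunit of oxoglutarate dehydrogenase, ran against the enzymes, with 7915, 11813, 10896 and 8708 normalized counts at passage 6 and 10022, 8364, 11299 and 8981 at passage 16 (r = -0.98), while *Idh2* (0.76) and *Suclg2* (0.52) had the other wide ranges of this list on the log2 scale. Of 10 genes of the pentose phosphate pathway, 1 (*H6pd*, 398 to 838) differed more than 2-fold, and the median r was -0.13. Of 8 gluconeogenesis genes 5 were tested, 2 of them (*Fbp2* and *Fbp1*) over 2-fold, with a median r of -0.26. Of 12 reference genes, 1 (*B2m*) differed more than 2-fold, and their median range was 0.26, but 1 of them, *Tfrc*, followed the enzymes closely (r = 0.99). None of these genes passed the threshold between passages.

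Markers of primitive endoderm, an early lineage that ES cultures can form, moved with the set. Of 10 listed, 8 were tested, all 8 differed more than 2-fold between libraries (24.1% of all names did), and their r with the core enzymes lay between 0.58 and 0.79, with a median of 0.72. Their summed normalized counts were 18901, 14540, 8736 and 32415 at passage 6 and 10860, 23894, 7155 and 18884 at passage 16, and *Gata4* ranged from 252 to 1586. The highest sum was in clone 36 at passage 6, not in clone 6, where the enzymes led. The part of these markers in the variation of the set was not tested. *Afp* and *Ttr* stayed at or below 11.8 counts, and no marker of the list was at 0 in all libraries.

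Markers of other cells did not follow the enzymes as lists. The median r was -0.030 for 11 of 13 fibroblast (feeder) markers tested, whose sums lay between 7119 and 11766 at passage 6 and between 6899 and 10428 at passage 16. It was 0.071 for 6 neural progenitor markers, 0.22 for 5 mesendoderm markers and -0.10 for 7 trophoblast markers. *Eomes*, in both the mesendoderm and the trophoblast list, had r = 0.90. *Foxa2*, listed for mesendoderm and primitive endoderm, had r = 0.65. Below 0 were 2 of the mesendoderm and 5 of the trophoblast markers. These lists also varied between libraries, with 7 of 11 fibroblast, 4 of 6 neural, 5 of 5 mesendoderm and 7 of 7 trophoblast markers over 2-fold. The sums of the 12 ES cell markers lay between 137681 and 146271 at passage 6 and between 139953 and 144893 at passage 16, with none over 2-fold and a median r of 0.15. Single ES cell markers went both ways over narrow ranges, from r = -0.90 for *Pou5f1* to 0.82 for *Tdgf1*, with 5 of the 12 below 0. None of the markers passed the threshold between passages.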

How the data were processed

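Per the labels, stranded libraries were made from polyA+ RNA, and the submitters' processing notes name FastQC, TopHat2 2.0.10, Bowtie 1.0.0, SAMtools 0.1.19, HTSeq 0.5.3p9, DESeq2 and GRCm38. Per the study's methods, reads were single-end, aligned to GRCm38 with several placements per read allowed, and counted per gene of the UCSC annotation. The methods do not say how reads with several placements were counted. The authors deposited a signal per gene, namely read counts scaled by the size factor of each library. Whole reads were recovered (100% of values, tolerance 0.001), and the factors equal those of DESeq2. No column was left unused.

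The members, lists and tests were chosen with earlier results of these data known. Row order was restored within groups of names, ties by closeness to clone 6 at passage 6. Passages were compared with limma 3.58.1 (R 4.3.3, trend, two-sided) on log2(normalized count + 1) of 14641 names with a mean of at least 10, Benjamini-Hochberg, threshold 0.05, a scale that understates changes of low genes. edgeR 4.0.16, DESeq2 1.42.0, a pseudocount of 0.5 or 10, the filter dropped or set at 100, TMM, quantile normalization and leaving out each library were alternatives. Scripts were checked on simulated data. Python 3.11.15, numpy 2.4.6, pandas 2.3.3 and scipy 1.17.1 were used.

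All 40 members are named. Those of the core enzymes and, per other role, the widest and the narrowest are given in full. For the passages, the 5 of lowest p and *Gapdh* are given, and outside the set at most 3 genes per list and the 3 most like the enzymes. Genes were matched to RefSeq GRCm38.p6, 38 by symbol and 2 by synonym, 4 without a promoter window.

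Libraries are paired by the clone number of the labels. Deviations from passage means correlated across names between both passages of a clone with r = 0.067 (clone 6), 0.27 (clone 20), 0.69 (clone 30) and 0.42 (clone 36). For clone 6 another clone was closer (0.28). Y-linked transcripts reached 2198 normalized counts in clone 20 and 2210 in clone 30, but clone 6 did not exceed 2.67 nor clone 36 9.48. No pair of libraries agreed within sampling noise (chi-square per degree of freedom at least 7.27 over 11193 names). Separate cultures are not stated beyond the clones, so p-values measure the spread between these libraries. Counting errors cover counting alone.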

Additional observations from a re-analysis of the deposited data

Results flagged for a closer look

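The change of the core enzymes between passages had opposite signs in 2 clones. Their mean at passage 16 minus passage 6 was -0.55 on the log2(normalized count + 1) scale in clone 6, where 9 of 10 enzymes were lower, and 0.86 in clone 20, where 10 of 10 were higher. It was 0.15 in clone 30, where 10 of 10 were higher, and 0.010 in clone 36, where 7 of 10 were. Each clone had 1 library per passage, paired by the clone number of the labels alone, so the difference between the clones was not tested. The libraries held 21394069 and 31752466 reads for clone 6 at passages 6 and 16 and 31634237 and 29061381 for clone 20. The summed primitive endoderm markers moved in the same directions, from 18901 to 10860 and from 14540 to 23894 normalized counts, and their part in the result was not tested.

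By Dixon's gap ratio, at its critical value for 4 values, no library stood apart from the other 3 in 80 groups (40 genes at 2 passages), where about 4 would by chance.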

How the results depend on the processing

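The number of names past the threshold between passages, 0 of 14641, was 1 with the table as deposited, a name outside the set, and 40 in DESeq2 with the replicate block (16 higher and 24 lower at passage 16). It was 0 in the other 21 alternatives, among them limma and edgeR with the replicate block (1156 and 1125 names unadjusted) and the 8 fits that left out 1 library each (0 to 0). None of the 40 genes passed in any of the 23, with a lowest adjusted p of 0.103 for *Hk1* in DESeq2 with the replicate block. The block changed no other call. The log2 fold changes of *Hk1* (0.23 to 0.49), *Vhl*, *Ak4*, *Mxi1*, *Gys1* and *Gapdh* (0.032 to 0.15) kept their sign in all 23. The count of genes over 2-fold between libraries, 25 of 40, was 22 to 25 and their median range, 1.33, was 1.14 to 1.33 over 17 alternatives, lowest without clone 30 at passage 6, while the share of all names over 2-fold was 39.7% without the filter and 11.5% at a mean of at least 100. With 4 clones per passage, differences smaller than the spread between cultures were not detectable, and the cultures of a clone have no replicate at a passage.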
